A study of Mus musculus with 6 samples.

Results

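The genes described here are the machinery that writes and erases N6-methyladenosine (m6A) on messenger RNA, the IGF2BP reader proteins, and the deadenylation, decapping and decay factors through which the m6A reader YTHDF2 acts. They were chosen by symbol from their known roles, without the YTH genes themselves, and number 39 of the 56884 genes in the count files. The data are RNA-seq counts from 6 libraries of mouse small intestinal organoids whose genotype is Villin-CreERT2, Lgr5-EGFP-IRES-CreERT2 and Ythdf2fl/fl. Every group shares these alleles: the Villin promoter drives a tamoxifen-inducible Cre in intestinal epithelium, the Lgr5 locus drives EGFP and a further inducible Cre in stem cells, and both copies of *Ythdf2* are floxed. Organoids received 4-hydroxytamoxifen (4-OHT, which activates CreERT2) or its ethanol vehicle (EtOH), given in the series text as 0.5 µM EtOH/4-OHT, and Lgr5-GFP+ cells were sorted at day 4 or day 6. Day 6 has 2 EtOH and 2 4-OHT libraries, and day 4 has 1 of each. The labels do not say whether replicates came from separate mice or cultures, so p-values measure only the spread between these libraries, which may be technical.

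N6-methyladenosine is placed on nascent messenger RNA by the METTL3 and METTL14 heterodimer together with a regulatory complex, and it can be removed by the demethylases FTO and ALKBH5. YTHDF2 binds methylated transcripts in the cytoplasm and shortens their lives by recruiting the CCR4-NOT deadenylase complex through its scaffold CNOT1. Methylated transcripts can also be cleaved by RNase P and MRP when RIDA (also called HRSP12) bridges them to YTHDF2, and decapped with the help of the helicase UPF1. In the intestinal crypt, Lgr5-positive stem cells divide and give rise to absorptive and secretory cells.

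With all libraries, 0 of the 38 members that could be tested passed the threshold between libraries labelled 4-OHT and EtOH at day 6 (2.51% of all genes passed), over both days together (4.4%) or between days (0.562%), and 0 differed by 2-fold or more at day 4 (6.03%). Without EtOH day 6 replicate 2, *Xrn1* and *Dcp2* passed between days, in a fit that called 559 of 14597 genes tested. At day 6 the fitted differences lay between -0.36 and 0.43 on the log2 scale. With all day 6 libraries, the 95% interval of each of the 38 lay inside 2-fold in either direction. So did the intervals of 66.7% of all genes tested, and fewer of the 38 did when any 1 day 6 library was left out. *Igf2bp1* had too few reads to be tested.

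The RefSeq start regions of 2 members are printed, one at a low and one at the highest level among the writer and eraser enzymes: *Mettl3*, the catalytic writer subunit, and *Alkbh5*, an eraser. They are the 250 bases before the transcription start in RefSeq (table build GRCm38.p6), placed by exact match on GRCm39 at chr14:52542582-52542831 on the minus strand and chr11:60428259-60428508 on the plus strand. In GENCODE M39 *Alkbh5* begins at base 60427207, upstream of its window, and the windows of *Mettl3* and *Alkbh5* hold 27 and 21 bases of annotated exon. Each is written 5′ to 3′ with every CG dinucleotide in capitals.
Mettl3: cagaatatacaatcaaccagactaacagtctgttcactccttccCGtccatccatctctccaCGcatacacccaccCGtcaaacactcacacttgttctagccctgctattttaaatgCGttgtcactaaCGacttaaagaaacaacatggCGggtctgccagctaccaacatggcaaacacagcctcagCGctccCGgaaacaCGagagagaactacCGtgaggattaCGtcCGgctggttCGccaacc
Alkbh5: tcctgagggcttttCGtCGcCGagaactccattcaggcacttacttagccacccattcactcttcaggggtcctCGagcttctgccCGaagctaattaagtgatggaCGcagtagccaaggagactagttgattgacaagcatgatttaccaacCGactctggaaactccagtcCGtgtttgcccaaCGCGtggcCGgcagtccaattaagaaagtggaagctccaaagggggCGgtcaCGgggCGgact
The *Mettl3* window holds 13 CG dinucleotides and 50.4% G and C, and the *Alkbh5* window 14 and 54.0%. Of the 39 members, 30 had a window in the RefSeq table. Their windows had a median of 61.4% G and C and 21 CG dinucleotides, against 59.6% and 16 in the 10130 windows of genes tested at day 6. The GC box GGGCGG (or CCGCCC, its reverse complement) was in 19 of the 30 (63.3%), against 59% of windows of tested genes and 32.9% of all 27025 windows. The letters CCAAT, searched on both strands, were in 36.7% of the members' windows and in 36.7% of those of tested genes. The letters TATAAA were in 6.67% of either set. By the CCAAT and TATAAA letters the members' start regions matched those of the tested genes. In G and C, CG dinucleotides and the GC box they were higher than the tested genes, and these differences were not tested.

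*Ythdf2* checks the labels. At day 6 its CPM (read counts scaled to library size and composition) was 82.7 and 76.0 with EtOH against 208 and 204 under the 4-OHT label, and at day 4 it was 76.1 against 168. Counts of the floxed gene were thus higher, not lower, in every library labelled 4-OHT, and the day 6 log2 fold change was 1.37 ± 0.16 (SE), with adjusted p 0.0018, by edgeR's quasi-likelihood test and Benjamini-Hochberg adjustment. The files give 1 total per gene, so reads over the floxed exons cannot be separated from the rest. For that reason the groups are called libraries labelled 4-OHT throughout, and every direction below rests on the labels.

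The libraries held 14345379 to 21461835 gene counts, so 1 CPM stood for 14.7 to 21.5 counts. The day 4 libraries had a count for more genes (24195 and 26521) than the day 6 libraries (19522 to 20622). Summed over 10 stem cell markers, CPM was 5020 to 6058 in EtOH libraries and 3716 to 4331 in those labelled 4-OHT. A single stem marker reached 3303 CPM, so the sum need not speak for the list. With the 4-OHT label, 3 of the 10 stem markers were above 0 and 7 below at day 6. At day 4, 5 were above 0 and 5 below. No unsorted library was analysed here, so these sums do not check the sort. Summed over 10 enterocyte markers, CPM was 904.2 to 1313 (EtOH) against 1147 to 3907 (4-OHT), and at day 6 the 4-OHT label went with 8 of the 10 called higher. It also went with 1 of 10 stem markers called lower, 2 of 8 goblet markers called higher (4 of the 8 were below 0) and 1 of 6 tested tuft markers called lower, with 0 called among Paneth, enteroendocrine, stromal or immune markers. Over both days, summed Paneth markers ran from 397.3 to 2809 CPM (EtOH) and 1660 to 4927 CPM (4-OHT), and summed enteroendocrine markers from 58.7 to 440.4 and 261.7 to 698. Summed goblet markers were 3375 and 3480 (EtOH) against 2887 and 2599 (4-OHT) at day 6, and 2054 against 2446 at day 4. Summed tuft markers ran from 11.7 to 40.7 and 8.22 to 12.3, with *Il25* at 0 in every library. Stromal markers summed to at most 12.7 CPM and immune markers to at most 10.2 CPM in any library. The part of these shifts in the members' values was not tested, and in bulk RNA fewer cells of a type and less RNA per cell cannot be told apart.

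Levels were compared between genes as CPM per kb of annotated exon. The members together took 0.519% to 0.621% of the gene counts of a library, and 38 of the 39 had a mean of at least 1 CPM. *Pabpc1*, whose protein coats the poly(A) tail, stood far above the others at a mean of 332.5 CPM per kb (304.6 to 384.1 over 6 libraries). Next came *Alkbh5* at 49.5, the deadenylase adaptor *Tob1* at 46.2, *Upf1* at 36.3 and the antiproliferative adaptor *Btg1* at 29.1. Ranges of neighbours in the order overlapped for 35 of 38 neighbour pairs, so the order of such neighbours is not resolved. This holds for each neighbour pair from *Alkbh5* to *Btg1* as well. By this length the gaps were below *Pabpc1*, below *Btg1* and above *Igf2bp1*. The order was not worked out by the longest transcript, which can change it. *Cnot1* has 18808 bases of annotated exon but a longest transcript of 9024, while *Btg1* has 5283 and 5008.

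**Figure D1:**
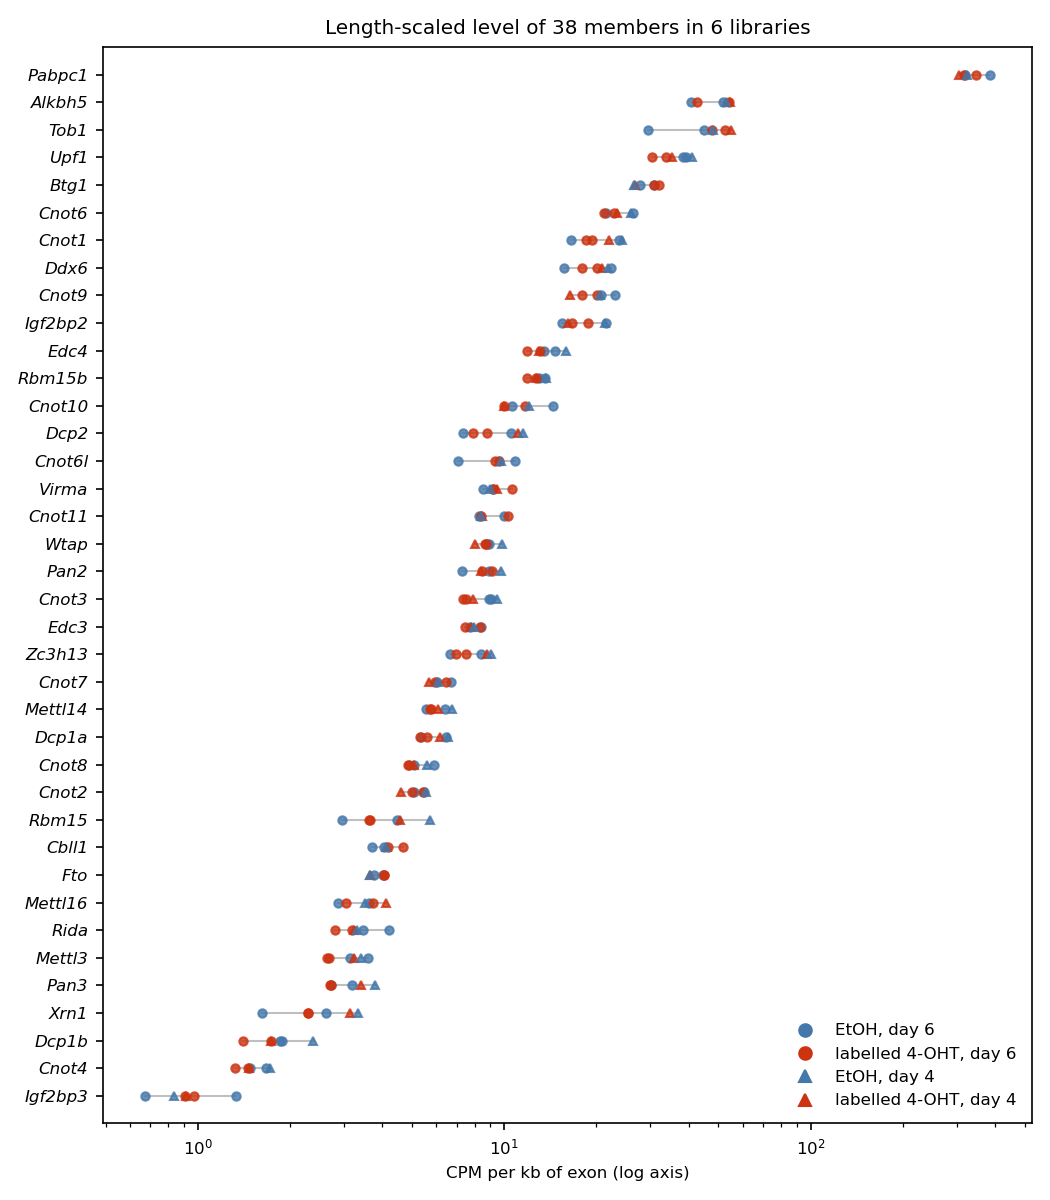
Level of 38 members in CPM per kb of exon (log axis), 1 point per library, ordered by the mean over 6 libraries; circles are day 6, triangles day 4, blue EtOH and red libraries labelled 4-OHT, and a grey line spans the libraries. *Pabpc1* stands apart at 304.6 to 384.1 and *Igf2bp3* is lowest, from 0.673 to 1.33; *Igf2bp1* is not drawn.

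The methyltransferase subunits were present at modest levels. *Mettl14*, the RNA-binding partner of the heterodimer, had 6.04 CPM per kb (5.54 to 6.77), *Mettl3* had 3.11 (2.64 to 3.58), and *Mettl16*, a separate methyltransferase of structured RNAs, had 3.48 (2.86 to 4.11). *Mettl3* made up 31.4% to 36.2% of the sum of *Mettl3* and *Mettl14* per kb in the 6 libraries, and 40.8% to 46.1% when length was taken from the longest transcript. Among the regulatory subunits, *Rbm15*, which helps guide the writer to its sites, made up 17.8% to 29.4% of the sum with its paralog *Rbm15b*. Exons of *Rbm15b* overlap other genes over 62.0% of their bases, chiefly *Manf*, and the strand setting of the counting is not given in the sources used here. The eraser pair was uneven: *Fto* held 6.24% to 8.97% of the sum of *Fto* and *Alkbh5* per kb, or 16.6% to 22.7% by the longest transcript.

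Of the IGF2BP readers, which stabilise bound transcripts, *Igf2bp2* was the main one. It held 94.2% to 96.2% of the sum of *Igf2bp2* and *Igf2bp3* per kb. *Igf2bp1*, known as an oncofetal member, had 0 counts in each of the 4 day 6 libraries, which allows up to 3 counts per library, and had 3 counts in the day 4 library labelled 4-OHT and 13 in the day 4 EtOH library. These 2 libraries are also the ones with a count for the most genes.

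The catalytic subunits of CCR4-NOT come in 2 paralog pairs, and both paralogs of each were expressed. *Cnot6*, of the endonuclease-exonuclease-phosphatase type, held 68.8% to 75.2% of the sum with *Cnot6l*. *Cnot7*, of the DEDD type, held 50.6% to 57% of the sum with *Cnot8*, or 64% to 69.7% by the longest transcript. *Cnot7* shares 31.8% of its exon bases with other genes, chiefly *Zdhhc2*. The scaffold *Cnot1* had 20.7 CPM per kb and *Cnot9*, the subunit that docks many RNA-binding proteins, had 19.8. The ubiquitin ligase *Cnot4*, loosely attached to the complex, was the least abundant subunit at 1.52. In the decapping complex, *Dcp1a* held 73.3% to 79.1% of the sum with *Dcp1b*. In the separate PAN2-PAN3 deadenylase, *Pan2* held 71.1% to 77% of the sum with its partner *Pan3*. In each of the pairs *Cnot6* and *Cnot6l*, *Dcp1a* and *Dcp1b*, and *Pan2* and *Pan3*, the order of the paralogs or partners was the same in all 6 libraries and by either length.

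The first comparison asks how the members differed at day 6 between the 2 libraries labelled 4-OHT and the 2 EtOH libraries, the only contrast with replicates within a day. Of 14066 genes tested, 353 (2.51%) were called at an adjusted p under 0.05, 320 (2.27%) higher and 33 (0.235%) lower, and 113 were called without EtOH replicate 1. Of the 38 members tested, 0 were called by edgeR's quasi-likelihood test, 0 had an unadjusted p under 0.05 (10.3% of all genes did) and 0 were called by DESeq2. The count at an unadjusted p under 0.05 was 5 when EtOH replicate 2 was left out and 1 when EtOH replicate 1 was. The share of all genes at that p in those fits was not worked out. With all day 6 libraries, the smallest adjusted p among the 38 members was 0.539, by edgeR's quasi-likelihood test and Benjamini-Hochberg adjustment. Against a background of 2.51%, a count of 0 among 38 does not set the members apart. With all day 6 libraries, the 38 intervals were each within 2-fold, as were those of 66.7% of all genes tested. Fewer of the 38 were when any 1 of these libraries was left out. Members also had an absolute log2 fold change under 0.5 in 38 of 38 cases, against 80.8% of all genes. The lowest CPM of a tested member in any library was 5.875 (*Igf2bp3*), while the genes tested reach down to the filter's minimum count of 10. Shares among genes of like level were not worked out, so neither comparison sets the members apart.

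**Figure D2:**
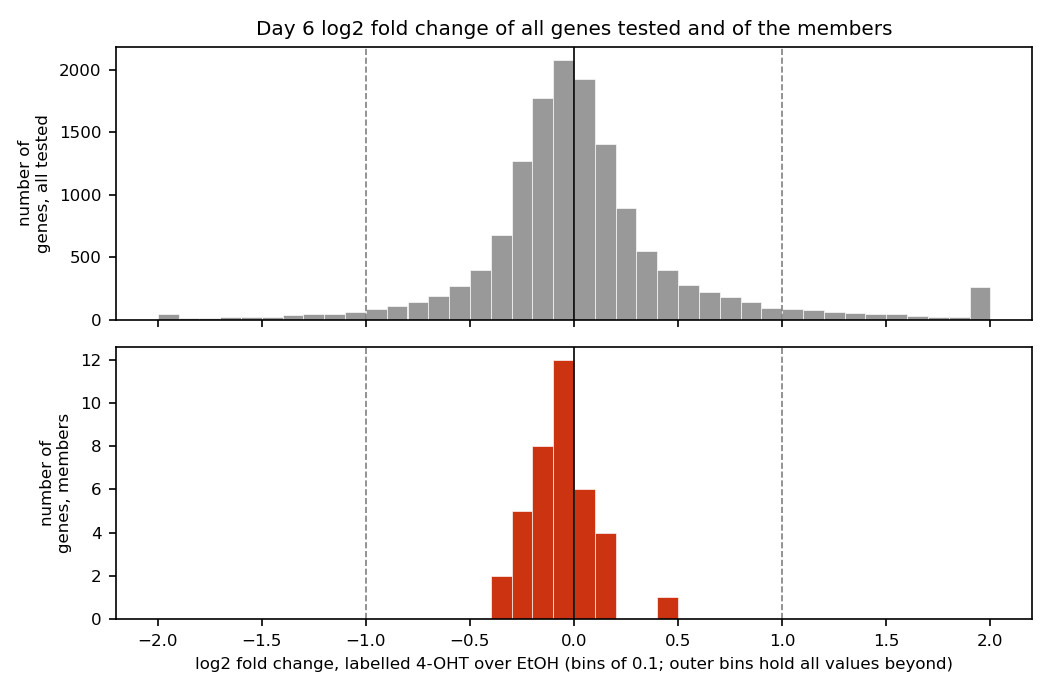
Number of genes per bin of 0.1 in the day 6 log2 fold change, libraries labelled 4-OHT over EtOH, for all 14066 genes tested (top) and the 38 members (bottom); dashed lines mark 2-fold and the outer bins hold the 266 genes beyond the plotted span. The members lie between -0.36 and 0.43.

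The signs were uneven: 11 members were above 0 and 27 below, or 28.9% above, where 48.2% of all genes were above. The median was -0.06 for the members and -0.01 for all genes. The median absolute difference between the 2 labels, 0.11 for the members, was smaller than the median absolute difference between the EtOH replicates of the same genes, 0.24, and close to that between the replicates labelled 4-OHT, 0.12. Over all genes tested these medians were 0.19, 0.29 and 0.19, and a difference between means of 2 libraries is narrower by construction than one between single libraries. The 2 groups did not overlap for 4 members on the higher side (*Btg1*, *Cbll1*, *Fto* and *Tob1*) and 12 on the lower side (*Cnot3*, *Cnot4*, *Cnot8*, *Cnot9*, *Dcp1b*, *Edc4*, *Mettl3*, *Pan3*, *Rbm15b*, *Rida*, *Upf1* and *Wtap*). Over all genes tested, 20.5% did not overlap on the higher side and 18.4% on the lower side.

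**Figure D3:**
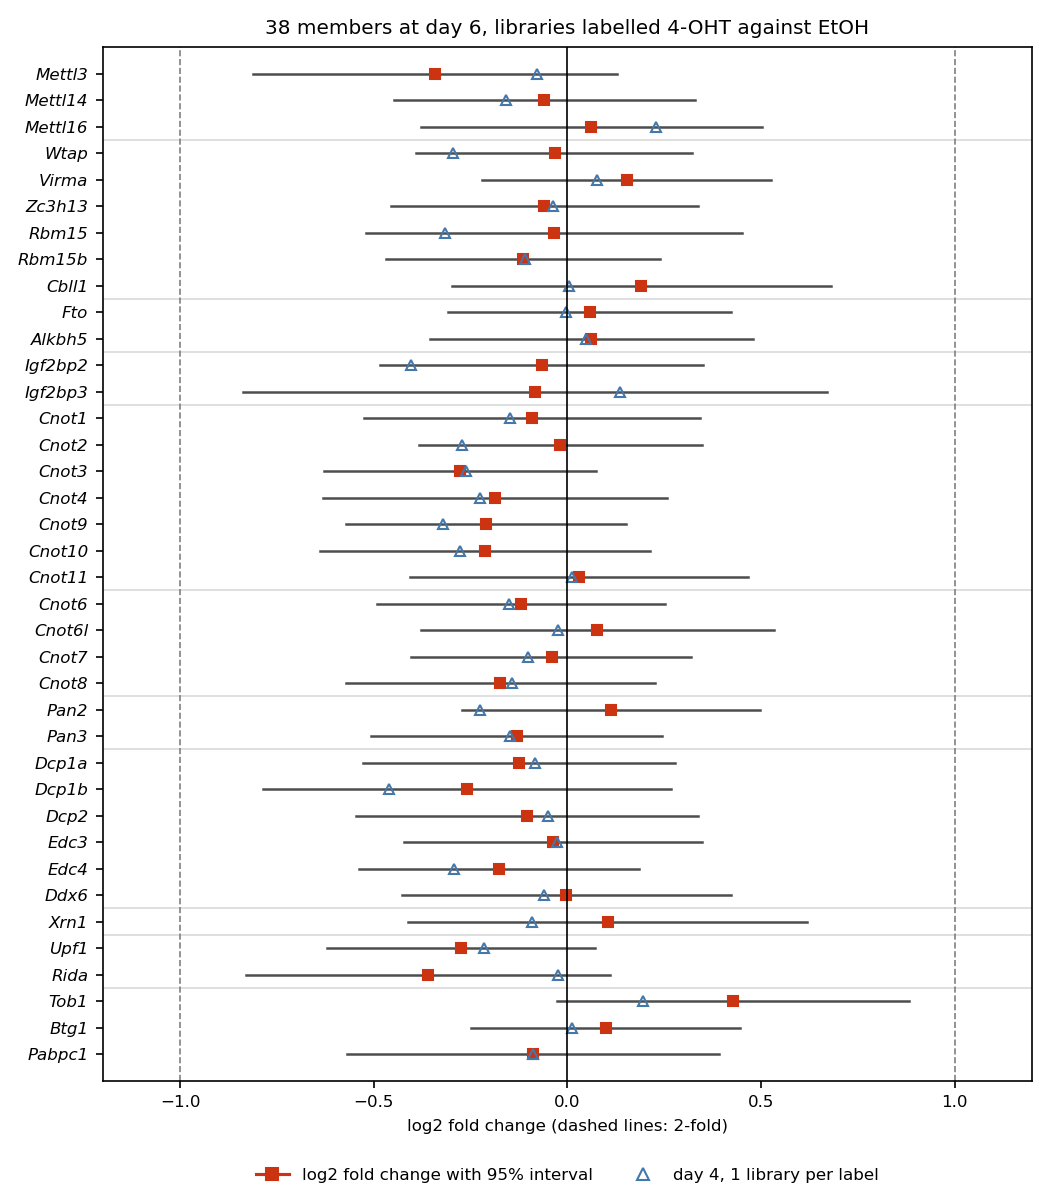
Day 6 log2 fold change of 38 members by role (red squares, grey lines the 95% interval), with the untested day 4 difference of 1 library per label (blue triangles); dashed lines mark 2-fold. Every interval lies inside the dashed lines and every one includes 0.

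Among the writers, *Mettl3* had the largest fitted day 6 difference. At day 6 its CPM was 24.2 and 21.3 with EtOH against 17.9 and 18.2 under the 4-OHT label, and at day 4 it was 23.0 against 21.8. Both day 6 libraries with the 4-OHT label were below all the others. The fitted log2 difference was -0.34 ± 0.21 (SE), with a 95% interval of -0.81 to 0.13 and an adjusted p of 0.689, by edgeR's quasi-likelihood test and Benjamini-Hochberg adjustment. *Mettl3* (chr14:52531551-52542608 on GRCm39, minus strand) shares 34.1% of its exon bases with other genes, chiefly *Tox4*. Its partner *Mettl14* was at -0.06, with CPM of 53.7 and 46.5 (EtOH) and 48.5 and 47.9 (4-OHT) that overlapped. The regulatory subunits lay between -0.12 (*Rbm15b*) and 0.19 (*Cbll1*, a ubiquitin ligase of the complex). The erasers *Fto* and *Alkbh5* were at 0.06 each, and the readers *Igf2bp2* and *Igf2bp3* at -0.07 and -0.08.

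In CCR4-NOT, 6 of the 7 scaffold and module subunits were below 0 and 1 above, with a median of -0.19. *Cnot3*, which pairs with CNOT2 in the complex, had a day 6 CPM of 84.6 and 86.1 with EtOH against 69.7 and 71.4 under the 4-OHT label. At day 4 it had 89.6 against 74.8, so that the 3 libraries labelled 4-OHT were below the 3 EtOH libraries. Its day 6 log2 fold change was -0.28 ± 0.16 (SE), adjusted p 0.645, by edgeR's quasi-likelihood test and Benjamini-Hochberg adjustment, and 14.9% of its exon bases are shared, chiefly with *Leng1*. The scaffold *Cnot1* had 310, 447, 363 and 349 CPM in the same order at day 6. Its EtOH replicates spanned the range of the libraries labelled 4-OHT, and the fitted difference was -0.09 (95% interval -0.53 to 0.34). The 4 catalytic subunits lay between -0.17 (*Cnot8*) and 0.08 (*Cnot6l*), and *Pan2* and *Pan3* of the other cytoplasmic deadenylase were at 0.11 and -0.13.

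The 6 decapping members were all below 0, from -0.26 (*Dcp1b*, a cofactor of the decapping enzyme) to -0.003 (*Ddx6*, a helicase that links CCR4-NOT to decapping). The 5′-to-3′ exonuclease *Xrn1*, which degrades decapped transcripts, was at 0.10 (95% interval -0.41 to 0.62). *Upf1* had a day 6 CPM of 194 and 190.5 with EtOH against 151 and 168 under the 4-OHT label, and 204 against 176 at day 4. As with *Cnot3*, each library labelled 4-OHT was below each EtOH library. Its day 6 log2 fold change was -0.28 (SE 0.16), adjusted p 0.639, by edgeR's quasi-likelihood test and Benjamini-Hochberg adjustment.

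*Rida*, the bridge to RNase P and MRP, had the lowest day 6 value of the 38. At day 6 its CPM was 29.2 and 24.1 with EtOH against 22.1 and 19.5 under the 4-OHT label, and at day 4 it was 22.9 against 22.6. The day 6 EtOH library of replicate 1 was the highest, and the day 4 pair lay between the day 6 groups. The log2 fold change was -0.36 ± 0.21 (SE), interval -0.83 to 0.11, adjusted p 0.661, by edgeR's quasi-likelihood test and Benjamini-Hochberg adjustment, and -0.21 without EtOH replicate 1. *Rida* (chr15:34480836-34495430, minus strand) shares 30.5% of its exon bases, chiefly with the unverified model *Gm49188*.

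*Tob1*, an antiproliferative protein that tethers the CNOT7 and CNOT8 deadenylases, had the highest day 6 value. At day 6 its CPM was 82.5 and 125 with EtOH against 133 and 147 under the 4-OHT label, and at day 4 it was 134 against 154. EtOH replicate 1 was the low library, and the day 4 EtOH library lay inside the range under the 4-OHT label. The fitted log2 difference was 0.43 ± 0.21 (SE), with a 95% interval of -0.03 to 0.88 and an unadjusted p of 0.063 in edgeR's quasi-likelihood test. Without EtOH replicate 1 it was 0.16, and without EtOH replicate 2 it was 0.76 with an adjusted p of 0.0594. *Tob1* (chr11:94102258-94106334, plus strand) shares no exon bases with another gene. Its relative *Btg1* was at 0.10 (interval -0.25 to 0.45), and *Pabpc1* at -0.09 (interval -0.57 to 0.39) with CPM of 2165 and 2603 against 2148 and 2344.

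**Figure D4:**
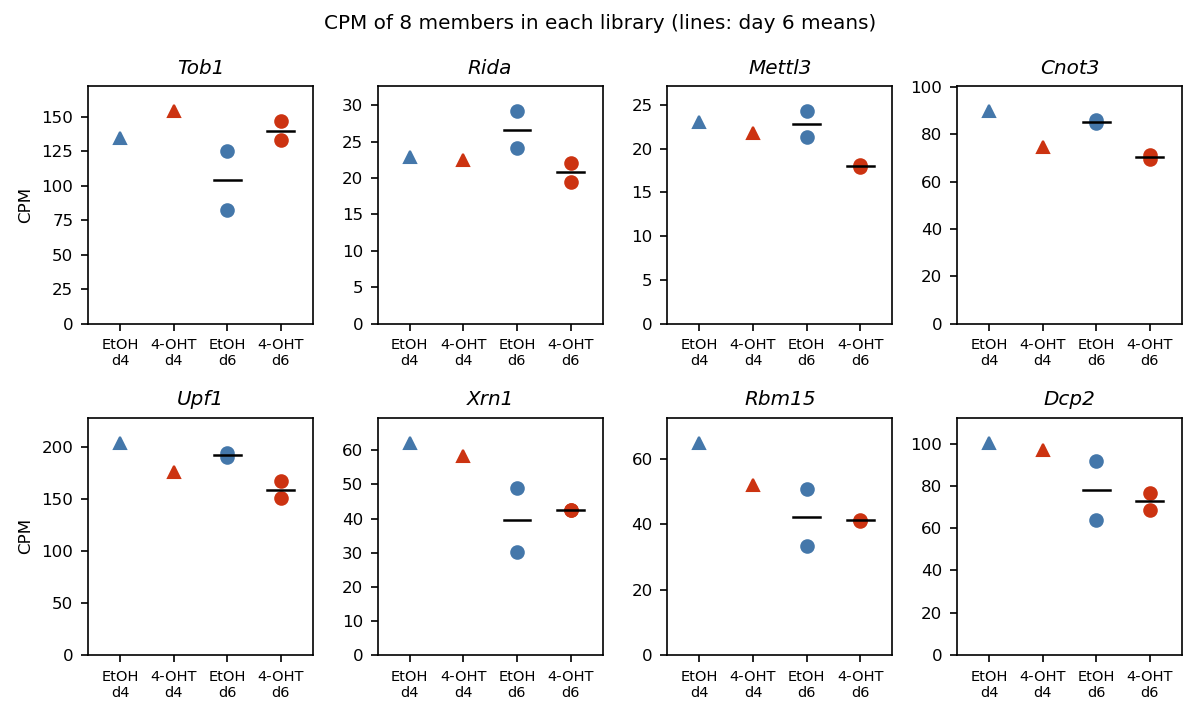
CPM of 8 members in each library (triangles day 4, circles day 6, lines the day 6 means; blue EtOH, red labelled 4-OHT; axes start at 0). The libraries labelled 4-OHT are below the EtOH libraries of their day in *Cnot3*, *Upf1*, *Mettl3* and *Rida*. The day 4 libraries are highest in *Xrn1*, *Rbm15* and *Dcp2*.

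The second comparison set the 3 libraries labelled 4-OHT against the 3 EtOH libraries with day as an additive term, which uses every library. It called 618 of 14060 genes (4.4%), 517 (3.68%) higher and 101 (0.718%) lower. The count was 384 without the day 6 library labelled 4-OHT of replicate 1 and 394 without that of replicate 2. Without either day 4 library, the day term fits the other exactly and the difference rests on day 6 alone. Those 2 fits called 361 genes each, near the day 6 count of 353. Among the 38 members 0 were called by edgeR's quasi-likelihood test and 0 by DESeq2. An unadjusted p under 0.05 was reached by 4 members, against 16.1% of all genes, and by 3 with DESeq2. These 4 were *Cnot3* at -0.27 (interval -0.50 to -0.04), *Upf1* at -0.25 (-0.48 to -0.03), *Tob1* at 0.35 (0.01 to 0.69) and *Cnot9* at -0.24 (-0.49 to -0.001). Their adjusted p was 0.219, 0.248, 0.297 and 0.308 in that order, by edgeR's quasi-likelihood test and Benjamini-Hochberg adjustment. A share of 4 in 38 is below that of all genes, so these 4 are not set apart by the test. The count of members at an unadjusted p under 0.05 was 0 without either day 4 library, where the fit again rests on day 6 alone. It was also 0 without either day 6 library labelled 4-OHT, and 6 without either day 6 EtOH library. The share of all genes at that p in these fits was not worked out. *Tob1* was at 0.17 without EtOH day 6 replicate 1. The 3 libraries of each label did not overlap for 1 member on the higher side (*Cbll1*) and 9 on the lower side (*Cnot3*, *Cnot4*, *Cnot9*, *Dcp1b*, *Edc4*, *Rbm15b*, *Rida*, *Upf1* and *Wtap*), where 11.1% and 9.02% of all genes did so.

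*Cnot9* had a day 6 CPM of 114 and 103 with EtOH against 99.6 and 88.9 under the 4-OHT label, and 102 against 81.4 at day 4. *Dcp1b* had 15.7 and 15.4 against 14.4 and 11.6 at day 6, and 19.8 against 14.3 at day 4. Both were lower in each library labelled 4-OHT than in any EtOH library, and *Dcp1b* had the largest fitted difference on the lower side, -0.32 (interval -0.69 to 0.04, adjusted p 0.378, by edgeR's quasi-likelihood test and Benjamini-Hochberg adjustment). *Mettl3* was at -0.25 (interval -0.58 to 0.07). All 38 intervals lay within 2-fold, as did those of 73.8% of all genes. Of the members, 11 were above 0 and 27 below, where 48.6% of all genes were above. Their median was -0.10 against -0.01 over all genes.

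At day 4, with 1 library per label and no test, 774 of the 12836 genes averaging 1 CPM or more (6.03%) differed by 2-fold or more, 594 (4.63%) higher and 180 (1.4%) lower with the 4-OHT label. Among the 38 members 0 did so. The members ran from -0.46 (*Dcp1b*) to 0.23 (*Mettl16*), with 8 above 0 and 30 below and a median of -0.10. Over all genes, 49.6% were above 0 and the median was -0.003. The next lowest were the reader *Igf2bp2* at -0.41, *Cnot9* at -0.32, *Rbm15* at -0.32 and *Wtap*, which anchors the writer in nuclear speckles, at -0.29. *Igf2bp2* had 171 CPM in the EtOH library and 129 in the library labelled 4-OHT. At day 6 it had 124 and 172 with EtOH against 134 and 150.4 under the 4-OHT label, so the day 4 pair fell within the day 6 range of EtOH. *Wtap* had 77.6 and 63.2 CPM at day 4, and at day 6 70.7 and 69.7 with EtOH against 68.6 and 69.0 under the 4-OHT label. Its day 6 libraries lay close together, between the day 4 libraries. These day 4 differences have no replicate check. At day 4 the 4-OHT label also went with 7 of 7 Paneth, 7 of 8 enteroendocrine, 6 of 9 enterocyte and 3 of 8 goblet markers at least 2-fold higher. So was 1 of 1 stromal marker, while 0 of 10 stem, 0 of 4 tuft and 0 of 1 immune markers differed by 2-fold or more. The part of these markers' shifts in the members' values was not tested.

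Whether the difference between labels itself differed between the days was tested with an interaction term. It called 0 of 14060 genes by edgeR's quasi-likelihood test, with 228 (1.62%) at an unadjusted p under 0.05 and 6 called by DESeq2. Among the 38 members 0 were called, 0 had an unadjusted p under 0.05 and 0 were called by DESeq2. The 5 largest, as day 6 minus day 4 on the log2 scale, were *Igf2bp2* at 0.34 (interval -0.38 to 1.06), *Pan2* at 0.34 (-0.32 to 1.01), *Rida* at -0.33 (-1.15 to 0.48), *Rbm15* at 0.29 (-0.53 to 1.11) and *Wtap* at 0.27 (-0.35 to 0.88). Without EtOH day 6 replicate 1 they were 0.13, 0.20, -0.19, 0.02 and 0.28 in the same order, and without EtOH day 6 replicate 2 they were 0.57, 0.48, -0.48, 0.60 and 0.23, with 4 members at an unadjusted p under 0.05. The share of all genes at that p in that fit was not worked out. With all libraries, only 28 of the 38 intervals lay within 2-fold, against 43.8% of all genes. This contrast is thus less precise than the others, and its spread came from the day 6 libraries. The count of 28 was 14 without either day 6 library labelled 4-OHT and 35 without EtOH day 6 replicate 1. *Pan2*, the catalytic subunit of its complex, had a day 6 CPM of 65.3 and 80.3 with EtOH against 76.0 and 81.7 under the 4-OHT label, and 88.0 against 75.2 at day 4. The day 4 EtOH library was the highest and the day 6 EtOH library of replicate 1 the lowest.

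The day term of the same additive fit compares the 4 day 6 libraries with the 2 day 4 libraries. Titles of the day 4 libraries carry the letters ISC and those of the day 6 libraries do not. Day also goes with the run of library numbers in the labels, so day and library set cannot be told apart. It called 79 of 14060 genes (0.562%), 46 (0.327%) higher and 33 (0.235%) lower at day 6, but between 12 and 559 when 1 library was left out: 559 without EtOH day 6 replicate 2, 44 without the day 6 library labelled 4-OHT of replicate 1, 37 without the EtOH day 4 library and 12 without the day 4 library labelled 4-OHT. Of the 38 members 0 were called by edgeR's quasi-likelihood test with all libraries, and 4 had an unadjusted p under 0.05, all lower at day 6, against 12.6% of all genes either way and 6.55% lower. That count was 8 without EtOH day 6 replicate 2, 6 without EtOH day 6 replicate 1, 2 without the day 4 library labelled 4-OHT and 0 without the EtOH day 4 library. The share of all genes at an unadjusted p under 0.05 in these left-out fits was not worked out, so these counts do not set the members apart. DESeq2 called 0 members.

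*Xrn1* had the largest day difference. Its CPM was 62.2 (EtOH) and 58.3 (4-OHT) at day 4, while day 6 had 30.2 and 48.9 with EtOH against 42.6 and 42.5 under the 4-OHT label. Both day 4 libraries were above all 4 day 6 libraries, and EtOH replicate 1 was the lowest of all. The log2 difference, day 6 over day 4, was -0.56 ± 0.18 (SE), interval -0.95 to -0.16, with an adjusted p of 0.236, by edgeR's quasi-likelihood test and Benjamini-Hochberg adjustment. *Rbm15* had 64.8 and 52.0 CPM at day 4 and 33.5, 50.8, 41.0 and 41.4 at day 6, a difference of -0.48 ± 0.17 (SE).

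*Dcp2*, the catalytic subunit that removes the cap, had 100.3 and 96.8 CPM at day 4 and 64.0, 91.8, 76.5 and 68.8 at day 6, a difference of -0.39 ± 0.15 (SE). *Pan3*, which guides PAN2 to poly(A), had 83.3 and 75.1 at day 4 and 60.3, 70.3, 59.5 and 60.0 at day 6, a difference of -0.34 ± 0.12 (SE). *Zc3h13*, a writer subunit that keeps the complex in the nucleus, had 84.1 and 82.0 at day 4 and 61.9, 78.4, 70.0 and 64.9 at day 6, a difference of -0.27 ± 0.13 (SE). In each of these, as in *Rbm15*, the day 4 libraries lay above the day 6 libraries without overlap. Between days, 5 of 10 enterocyte and 2 of 8 goblet markers were called higher at day 6, and all 7 Paneth and all 8 enteroendocrine markers were above 0 with 0 called. The summary lines for unassigned reads and the like took 24.95% and 26.7% of entries at day 4 against 19.3% to 21.0% at day 6. The part of either in these differences was not tested. For *Rbm15*, *Dcp2* and *Pan3* the adjusted p was 0.275, 0.313 and 0.265, by edgeR's quasi-likelihood test and Benjamini-Hochberg adjustment.

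The calls for *Xrn1* and *Dcp2* turn on 1 library. Without EtOH day 6 replicate 2, *Xrn1* was at -0.71 with an adjusted p of 0.0354 and *Dcp2* at -0.51 with an adjusted p of 0.0463 by edgeR's quasi-likelihood test, and in that fit 559 genes were called in all. Without EtOH day 6 replicate 1, *Xrn1* was at -0.41 and *Dcp2* at -0.29. Over the 38 members, 2 did not overlap on the higher side at day 6 (*Btg1* and *Fto*) and 5 on the lower side (*Dcp2*, *Pan3*, *Rbm15*, *Xrn1* and *Zc3h13*), against 9.87% and 10.1% of all genes. In all, 12 members were above 0 and 26 below, where 54% of all genes were above. Their median was -0.09 against 0.03 over all genes. All 38 intervals lay within 2-fold, as did those of 73.6% of all genes.

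**Figure D5:**
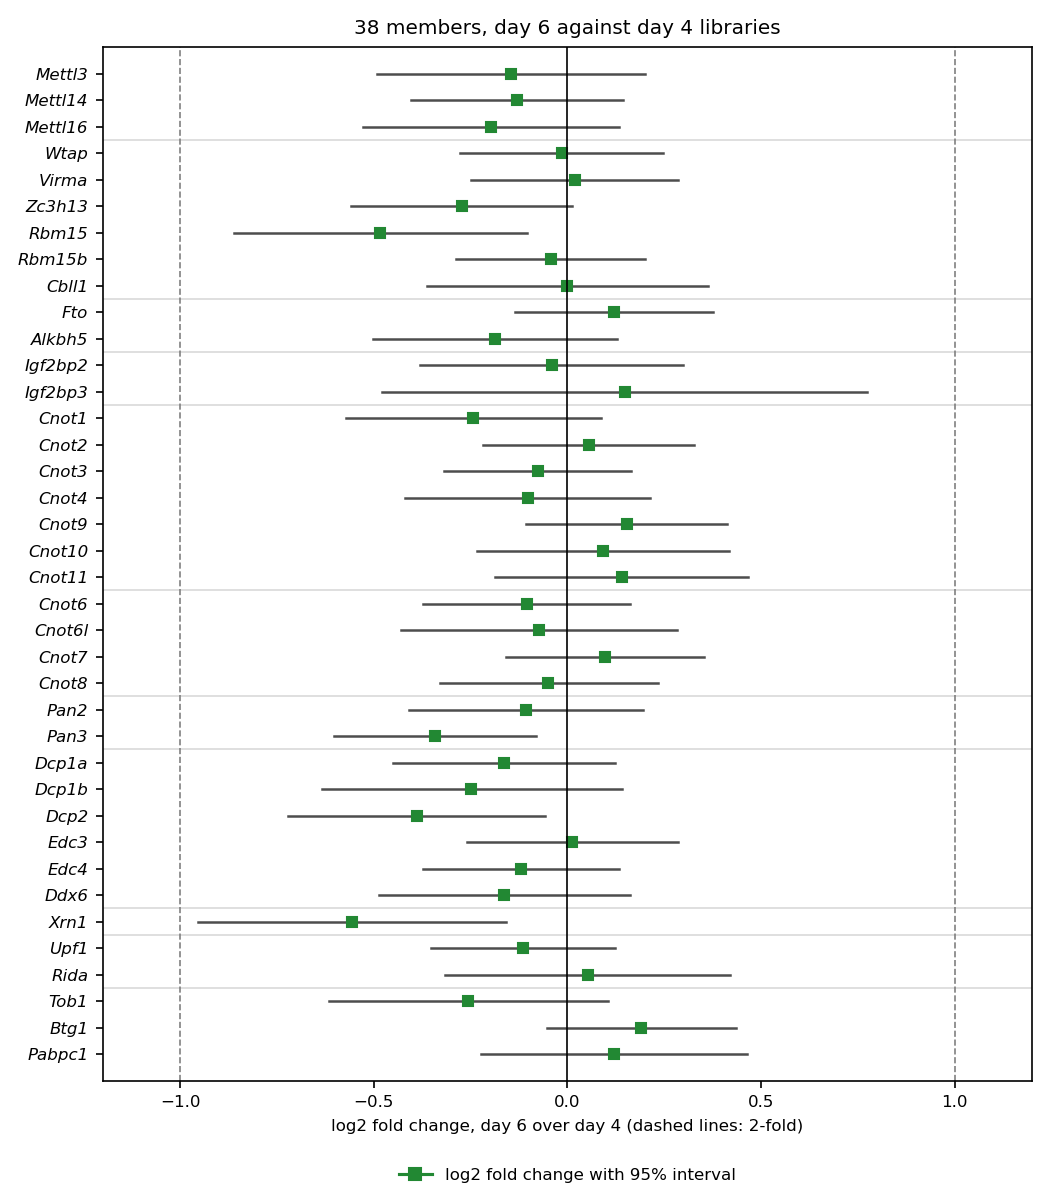
Log2 difference of 38 members between day 6 and day 4 libraries, by role, with the 95% interval; dashed lines mark 2-fold. The intervals of *Xrn1*, *Rbm15*, *Dcp2* and *Pan3* lie below 0, none passes after adjustment over 14060 genes, and every interval is inside 2-fold.

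The wider pathway was read from 6 further lists of 118 genes, of which 112 were tested. They cover other m6A-related proteins, other deadenylases and their adaptors, other decapping and P-body proteins, the exosome and its SKI helper complex, nonsense-mediated decay, and the subunits of RNase P and MRP. At day 6, 0 of the 112 were called (2.51% of all genes were) and 0 had an unadjusted p under 0.05, with 32 above 0 and 80 below and a median of -0.10. The lists' medians ran from -0.17 for decapping and P-body proteins, 2 of 24 above 0, to 0.003 for RNase P and MRP subunits, 6 of 11 above 0. Over both days 0 of the 112 were called and 4 had an unadjusted p under 0.05, all lower. Over all genes 4.4% were called and 16.1% had an unadjusted p under 0.05. Between days 0 of the 112 were called, with 11 lower and 2 higher at an unadjusted p under 0.05. Over all genes 0.562% were called, 12.6% had an unadjusted p under 0.05 and 6.55% did so on the lower side. At day 6, members and wider pathway both had more genes below 0 than above, as did all genes tested, of which 48.2% were above. Of the 112 pathway intervals 103 lay within 2-fold, as did those of 66.7% of all genes.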

How the data were processed

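Poly(A) RNA was captured on poly-T beads and reverse transcribed from random hexamers, per the labels' protocols. The authors deposited whole-number read counts per gene, not normalized, in 1 file per library. Reads were aligned with STAR to mm39 per the submitters' processing notes; the annotation release and strand setting are not given in the sources used here. Summary lines (unmapped, multimapping, unassigned, ambiguous; 19.3% to 26.7% of entries) stayed out of library sizes. Symbols, exons and overlaps came from GENCODE M39 (GRCm39), which matched 56323 identifiers holding 99.96% of counts.

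Each library was placed by the treatment and day in its title. Counts were tested with edgeR 4.0.16 (glmQLFit, glmQLFTest) in R 4.3.3, with TMM scaling, filterByExpr (minimum count 10) and Benjamini-Hochberg adjustment over all genes tested; a call is an adjusted p under 0.05. The SE is the absolute log2 fold change over the square root of F, and 95% intervals use the t distribution. Day 4 differences used a prior count of 2 and no test. CPM are TMM-scaled over the 6 libraries. DESeq2 1.42.0 was an alternative, with other scalings, filters and left-out libraries. The code was tested on simulated data. Counts of replicate pairs differed by far more than sampling noise (chi-square per degree of freedom 33.2 and 22.9), so no library was counted as a copy.

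Members and lists were chosen with earlier results of these data known. Library values are given for *Ythdf2*, for members with an adjusted p under 0.05 in any tested comparison or an unadjusted p under 0.05 at day 6 or over both days, and for the 5 largest differences per comparison at a mean of at least 1 CPM. *Mettl14*, *Cnot1*, *Pabpc1* and *Alkbh5* were added after their values were seen. Pathway genes were to be named only with an adjusted p under 0.05.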

Additional observations from a re-analysis of the deposited data

How the results depend on the processing

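Over 39 alternative fits (other scalings and filters, DESeq2, the day and replicate terms, each library left out), 38 called 0 members. The other called 2, *Xrn1* and *Dcp2* between days without EtOH day 6 replicate 2, and 559 of 14597 genes in all. Over both days, the fits without a day 4 library rest on the day 6 libraries alone, so they largely repeat the day 6 comparison. No difference of a member changed sign in a comparison that named it. Counts over all genes moved more. At day 6 a replicate block called 839 genes (688 higher, 151 lower) in place of 353, with 0 members and a smallest adjusted p among them of 0.176. The labels do not say that a number pairs libraries, and deviations of same-numbered libraries correlated at 0.266 over 2 pairs. Leaving out 1 library gave 113 to 409 genes at day 6, 361 to 701 over both days, 12 to 559 between days (0 to 2 members) and 0 to 13 for the interaction, an alternative chosen after seeing the data. Over both days, 361 were called with no day term. Between days, no filter on low counts gave 182 and moved the median of all genes to -0.19, and DESeq2 gave 318. DESeq2 called 6 genes for the interaction. The cause of these moves was not tested.

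With 2 libraries a group, a median day 6 interval for a member was 0.82 wide on the log2 scale, so differences well under 2-fold were not resolved.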
